A study of Mus musculus with 6 samples.

Results

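The genes described here encode the initiation and elongation factors of cytosolic translation and a few proteins that act on them. They were the rows of the gene table whose name begins with EIF followed by a digit from 1 to 6, or with EEF followed by 1 or 2, without the cap-binding protein Eif4e and 7 other such names (its repressors Eif4ebp1 and Eif4ebp2, the kinases Eif2ak2, Eif2ak3 and Eef2k, Eif2s3y and Eef1e1), and without pseudogene names. The rule gave 58 of 48321 gene names. RNA from isolated pancreatic islets of C57BL6 mice labelled WT was sequenced, with no agent given. One group ate normal chow. The other was fed a high-fat diet (60% of calories as fat) for 4 months from the age of 3 months; for the chow group neither age nor duration is stated. Each group has 3 deposited columns, but the column of chow replicate 2 is the mean of chow replicates 1 and 3 in 48321 of 48321 rows, so n = 2 for chow and n = 3 for high-fat diet throughout. Nothing states that each sample was a different mouse or pool, so p-values measure only how these samples vary, which may be technical variation.

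In initiation, eIF2 carries the initiator tRNA to the small ribosomal subunit, eIF3 holds that subunit and joins it to the mRNA, and the eIF4 factors bind the cap and unwind the leader. eIF1, eIF1A and eIF5 act in scanning and choice of the start codon, and eIF5B then joins the large subunit. eEF1A brings each aminoacyl-tRNA to the elongating ribosome, and eEF2 moves the ribosome along by 1 codon. In beta-cells a large part of this capacity serves insulin synthesis, and it is controlled by nutrients through mTOR, which is named in the title of the series.

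The values are CPM, reads scaled to a common library total. The spacing of the low values implied depths of 18.8 to 35 M reads, and 3 reads, taken as the floor of counting, were worth 0.0856 to 0.16 CPM. Islet hormone and beta-cell markers were present in all 5 libraries (9 of 9 beta-cell markers, 6.8% to 11.8% of the summed CPM, with overlap between the diets). With the deposited scaling, 4 of the 9 beta-cell markers were called higher under high-fat feeding and 0 lower, against 14.9% and 8.78% of all genes tested. Markers of exocrine acinar cells, cells rich in protein synthesis, ranged over 10.9% to 28.3% of the summed CPM in the chow libraries and 1.58% to 11.6% in the high-fat libraries, with 21 of 21 markers detected and 0 called. Of 7 fibroblast markers, 5 were lower under high-fat feeding (summed level 119 to 217 CPM in chow against 36.1 to 69.3 CPM), as were 2 of 5 endothelial markers. The share called lower among all genes tested was 8.78%. Fewer cells of a type and less RNA per cell cannot be told apart in such samples. Rn7sk, a nuclear RNA without a poly(A) tail, was at 6.27 and 13.3 CPM in chow and at 3192 to 3935 CPM on the high-fat diet, so a difference in how the libraries were made and a difference in diet cannot be told apart for any gene below.

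Translation of several of these mRNAs is known to depend on a tract of pyrimidines at their 5′ end, the terminal oligopyrimidine tract through which mTOR acts. The windows around the annotated start of 6 genes are shown because they cover both the genes with such letters and the genes that changed. Each window runs from 10 bases before to 20 bases after the RefSeq start (GRCm38.p6), 5′ to 3′ on the transcribed strand, with the longest run of C and T in capitals.
Eif3f, chr7:108934405-108934434, plus strand: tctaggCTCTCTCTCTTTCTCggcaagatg
Eif2s3x, chrX:94212632-94212661, minus strand: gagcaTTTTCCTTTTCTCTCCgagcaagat
Eif2b5, chr16:20498807-20498836, plus strand: CTCTTTCTCTCCCTgcaactacaccttcgc
Eif3a, chr19:60790674-60790703, minus strand: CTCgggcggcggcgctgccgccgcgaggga
Eif5b, chr1:37998000-37998029, plus strand: ctgggTTCCCacctggccggcggctctact
Eif4g1, chr16:20672717-20672746, plus strand: gcgcagctccgCCCTCTgcgccggtcacgt
A run of at least 8 bases that are each C or T, searched on the transcribed strand alone, lay in a window of 8 of the 43 tested members with an entry (18.6%), against 13% of the 27025 genes with an entry, a gene counting once if any of its windows holds a run. The run was 15 bases long in Eif3f, 16 in Eif2s3x and 14 in Eif2b5. Each of these runs begins before the annotated start, in Eif2b5 by 10 bases, so the lengths are not those of a tract at the mRNA end. Among the 8 members with a run, 1 was called higher (Eif3f) and 0 lower. Of the 35 without one, 4 were called higher and 3 lower. Among all genes tested 14.9% were called higher and 8.78% lower. Runs were not followed beyond the window. Those of Eef2 (6 bases) and Eif3k (7 bases) end at its last base, and both genes counted as without a run. These letters depend on which start RefSeq annotates, and the data hold transcript levels and not translation.

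Of the 58 members, 55 averaged 0.5 CPM or more over the libraries used and were tested. The other 3 were Eif2c5, whose name is that of an argonaute-like gene annotated as a long non-coding RNA and not of a factor, the oocyte-type cap-binding Eif4e1b, and the repressor Eif4ebp3. Their highest values in any library were 0.162, 0.0846 and 0.531 CPM. The members together made up 0.721% and 0.67% of the library total that CPM refers to in the chow libraries, against 0.705%, 0.681% and 0.69% in the high-fat libraries. Those ranges overlapped. As a share of the summed gene CPM, which itself differed between libraries, the members took 0.925% ± 0.0959 in chow and 0.778% ± 0.0433 under high-fat feeding (SD, n = 2 and 3, exact two-sided permutation p = 0.2, the smallest that 2 against 3 libraries allow). Eef1a1 and Eef2 accounted for 44.2% of the members' CPM in chow and 44.6% on the high-fat diet.

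With the deposited scaling, 7 members were higher and 6 lower under high-fat feeding. The higher ones were Eif3i, Eif3j1, Eif4g1, Eif3f, Eef1g, Eif4a3 and Eif3b. Of these, Eif3b, Eif3f, Eef1g and Eif4a3 lay below 0 when each library was scaled by its summed gene CPM without acinar and insulin genes. That sum is the total meant below wherever these genes are left out. With them kept in, it was 841705 and 674482 in chow and 963615, 832416 and 879301 under high-fat feeding. The shift in that scaling includes this difference as well as the genes removed, and these were not separated. The lower ones were Eif3j2, Eif5b, Eif3e, Eif3a, Eif2s2 and Eif1a, which lay below 0 under each of the 4 scalings run. Calls are at a Benjamini-Hochberg adjusted p below 0.05 by limma, over all 16939 genes tested. In all genes tested, 14.9% were called higher and 8.78% lower, 23.7% together, and the 13 members called were 23.6% of the 55, so the share called was that of the background. At an unadjusted p under 0.05 there were 19 of the 55 members, against 38.8% of all genes tested. The median log2 fold change was 0.04 in the members and 0.05 in all genes tested. Between the diets 35 members did not overlap (63.6%), against 55.4% of all genes tested. In that other scaling the median of all genes moved from 0.05 to -0.35, and 0 members were called higher and 36 lower (65.5%), against 4.71% and 42.4% of all genes (47.1% together). Under median-ratio scaling and under the trimmed mean of M values there were 6 higher and 9 lower each, beside backgrounds of 11.8% and 11.5% in the first and 12.4% and 11.1% in the second. The members' median less that of all genes was -0.01 with the deposited scaling and -0.08 in the other.

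**Figure D1:**
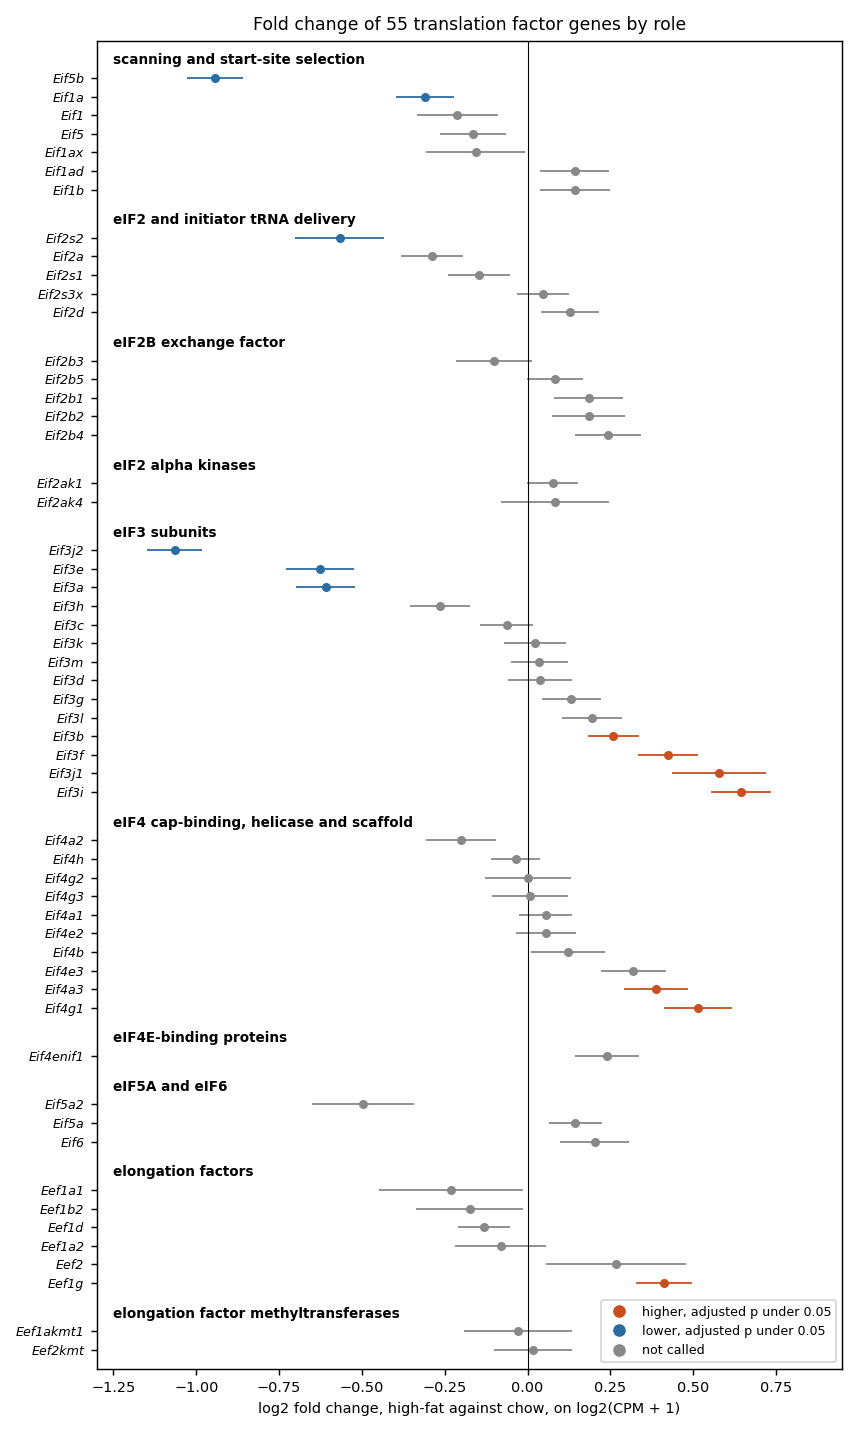
The log2 fold change of high-fat against chow for the 55 tested genes, grouped by role, with bars for the standard error (2 chow and 3 high-fat libraries) and colours for the limma call with the deposited scaling. The points run from -1.07 (Eif3j2) to 0.64 (Eif3i), and the eIF3 subunits cover that whole range. When scaled by the summed gene CPM without acinar and insulin genes, however, Eif3b, Eif3f, Eef1g and Eif4a3 fall below 0.

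The eIF3 subunits held 7 of the 13 calls. With the deposited scaling 4 of 14 were higher (Eif3i, Eif3j1, Eif3f and Eif3b) and 3 lower (Eif3j2, Eif3e and Eif3a). Of all genes tested, 14.9% were called higher and 8.78% lower. With acinar and insulin genes taken out of the summed gene CPM, 0 of the 14 were higher and 9 lower, beside 4.71% and 42.4% of all genes. Outside the j copies, 12 genes encode the subunits a to i and k to m of a complex that holds 1 copy of each. Their transcript levels per length were close to each other. In chow they ran from 24.5 CPM per kb (Eif3b) to 53.7 CPM per kb (Eif3h), 2.19-fold apart, and on the high-fat diet from 26 (Eif3d) to 45.4 CPM per kb (Eif3f), 1.75-fold apart. By comparison, the 3 subunits of eIF2 were 3.53-fold apart per kb in chow and the 5 subunits of eIF2B 5.45-fold.

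**Figure D2:**
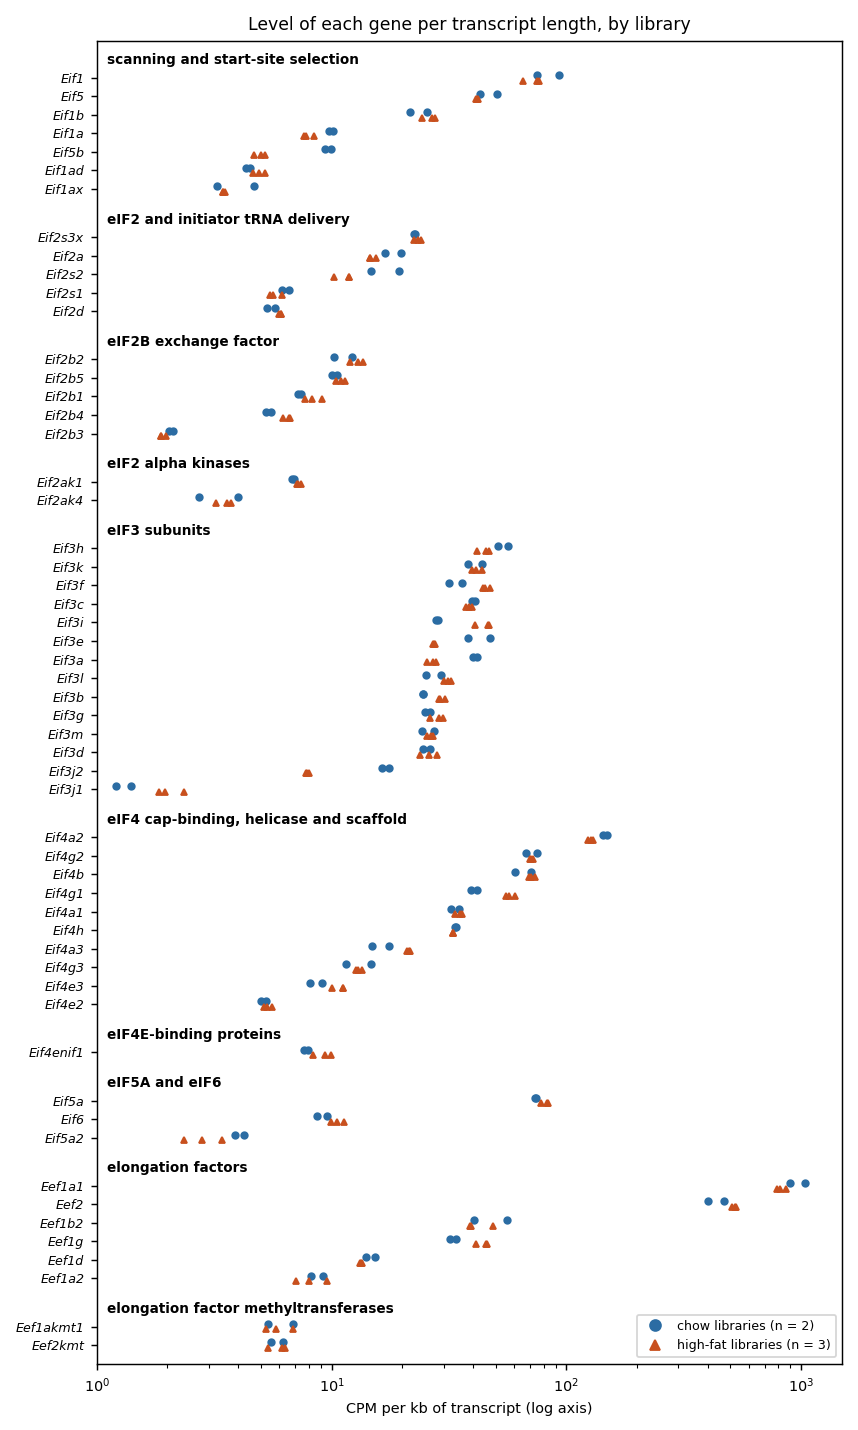
The level of each tested gene in CPM per kb of its longest coding transcript, on a log axis, with 1 point per library (circles chow, triangles high-fat diet). The 12 eIF3 genes other than Eif3j1 and Eif3j2 crowd between about the levels of Eif3b and Eif3h, while Eef1a1 and Eef2 stand far to the right of the other genes.

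Values below are in the order chow replicates 1 and 3, then high-fat replicates 1, 2 and 3. Eif3a encodes the scaffold subunit on which the complex is built. It was at 205 and 214 CPM on chow and 139, 130.2 and 142 CPM under high-fat feeding. The high-fat libraries were all well below both chow libraries. Eif3a fell by 0.61 ± 0.09 on the log2 scale (SE, limma adjusted p = 0.00485). Eif3e, a subunit of the outer lobe, was at 71.1 and 57.6 CPM on chow and 41, 41.4 and 40.9 CPM under high-fat feeding. Its 3 high-fat values were nearly equal, and the chow values differed more from each other. Eif3e fell by 0.63 ± 0.10 (adjusted p = 0.00765, limma). In the GENCODE annotation 42% of the 31-base words of Eif3e also occur in other genes, chiefly its pseudogenes. The 3 pseudogene rows measured (Eif3s6-ps1, Eif3s6-ps2 and Eif3s6-ps4) lay between 3.1 and 12.5 CPM in every library.

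Eif3i, a small subunit that binds the b subunit, was at 32 and 31.4 CPM on chow and 52, 45.9 and 52.7 CPM under high-fat feeding. Every high-fat value was above both chow values. Eif3i rose by 0.64 ± 0.09 (log2, SE, limma adjusted p = 0.00428), the largest rise among the members with the deposited scaling. It was at 0.17 with acinar and insulin genes taken out of the summed gene CPM (limma adjusted p = 0.165), or 0.53 above the median of all genes there. Eif3f, of the outer lobe, was at 90.4 and 79.6 CPM on chow and 119, 110.9 and 113 CPM under high-fat feeding. Its diets did not overlap, and it rose by 0.42 ± 0.09 (adjusted p = 0.0182, limma) with the deposited scaling and lay at -0.05 in the other (0.30 above all genes), and its call ended in 5 of the 16 alternatives. Eif3b, which with Eif3i and Eif3g forms a module beside the mRNA entry channel, was at 72.2 and 72 CPM on chow and 89.8, 84.7 and 85.1 CPM under high-fat feeding. The chow values were almost the same, and all 3 high-fat values were above them. Eif3b rose by 0.26 ± 0.08 (adjusted p = 0.0488, limma), was called in only 4 of the 16 alternatives, and lay at -0.22 when the total left out acinar and insulin genes (0.14 above all genes).

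Ratios within a library do not depend on how the library was scaled. The ratios below are given for subunits picked after their values were seen, each a subunit called higher over one called lower, so they describe the size of the gap and do not test it. Eif3b was at 0.353 and 0.336 of the CPM of Eif3a in chow and at 0.647, 0.650 and 0.599 on the high-fat diet. The ratio of Eif3f to Eif3e was 1.27 and 1.38 in chow and 2.89, 2.68 and 2.77 on the high-fat diet. Both ratios were higher in every high-fat library than in either chow library. When each subunit was set against the mean log2 level of the 12 subunits in its own library, 5 were higher without overlap on the high-fat diet (Eif3i, Eif3f, Eif3b, Eif3l and Eif3g) and 4 lower (Eif3e, Eif3a, Eif3h and Eif3c). For Eif3g the gap was very small, from -1.071 in chow replicate 3 to -1.069 in high-fat replicate 3, and its CPM values overlapped. Because each library is centred on these same 12 genes, the differences sum to 0 and some must lie on either side, so the counts describe the subunits relative to each other and are no support for a split. The other 3, Eif3d, Eif3k and Eif3m, overlapped between the diets. In the fit of all genes the 7 uncalled subunits ran from -0.27 (Eif3h, adjusted p = 0.0733, limma) to 0.20 (Eif3l) with the deposited scaling, and all 7 lay below 0 when the total left out acinar and insulin genes. On this relative scale the differences were -0.65 for Eif3e, -0.63 for Eif3a, 0.41 for Eif3f and 0.64 for Eif3i.

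**Figure D3:**
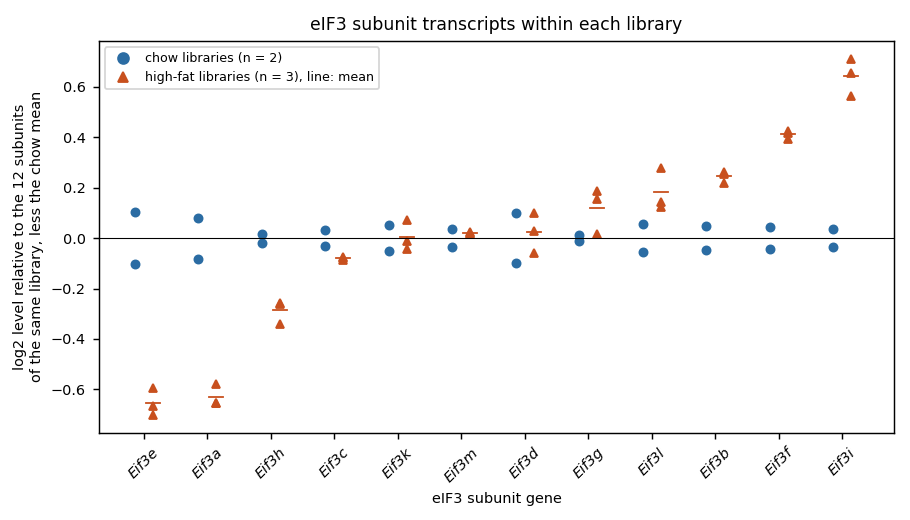
The log2 level of each of 12 eIF3 subunit genes relative to the mean of the 12 in the same library, with the chow mean of each gene set to 0 (circles chow, triangles high-fat diet, line the high-fat mean). Since each value is relative to the other subunits of its library, no scaling of the library moves the points, and the differences sum to 0 by construction. The high-fat means run from -0.65 for Eif3e to 0.64 for Eif3i.

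Eif3j1 and Eif3j2, copies of the loosely bound j subunit, had the same coding sequence in the annotation (100% identity over 783 bases). Eif3j2 has 1 exon and Eif3j1 has 8, and 94.9% of the 31-base words of Eif3j2 are found in other genes, mainly Eif3j1. Eif3j2 was listed at 41.9 and 38.9 CPM on chow and 18.6, 19 and 18.7 CPM under high-fat feeding. Eif3j1 was listed at 6.54 and 7.57 CPM on chow and 12.7, 9.93 and 10.5 CPM under high-fat feeding. The copies moved in opposite directions, Eif3j2 by -1.07 ± 0.08 (log2, SE, limma adjusted p = 0.00032) and Eif3j1 by 0.58 ± 0.14 (adjusted p = 0.0279, limma) with the deposited scaling. The Eif3j1 call ended in 7 of the 16 alternatives, and Eif3j1 was at 0.15 when the total left out acinar and insulin genes (adjusted p = 0.43, limma). How the authors divided reads between the copies is not given in the sources used here, so both values are uncertain. Their sum was 48.5 and 46.4 CPM on chow and 31.3, 29 and 29.2 CPM under high-fat feeding, a change of the mean by -0.67 on the log2 scale that was not tested.

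Among the genes of scanning and start-site selection, 0 of 7 were higher and 2 lower with the deposited scaling, against 14.9% and 8.78% of all genes. Eif5b, the GTPase that joins the ribosomal subunits, was at 77.9 and 72.9 CPM on chow and 40.7, 36.3 and 39.2 CPM under high-fat feeding. The high-fat libraries were all near the same level, far below the chow libraries. Eif5b fell by 0.94 ± 0.09 (log2, SE, limma adjusted p = 0.000706), to a mean of 38.8 ± 2.23 from 75.4 ± 3.53 CPM (SD, n = 3 and 2). Less than 1% of its 31-base words (0.94%) occur in another gene. Eif1a, an eIF1A gene that pairs with the X-linked Eif1ax, was at 29 and 27.8 CPM on chow and 24.1, 21.9 and 22.2 CPM under high-fat feeding, with no overlap. It fell by 0.31 ± 0.09 (adjusted p = 0.0424, limma), and 9 of the 16 alternatives ended this call. The most abundant member per length in this group was Eif1, which keeps the scanning ribosome from stopping early, at 99.2 and 123 CPM on chow and 101, 99.4 and 86.3 CPM under high-fat feeding. Its diets overlapped. Of the uncalled Eif1ad, Eif1ax and Eif1b, Eif1ax was at -0.16 and the others at 0.14 on the log2 scale. Eif5, the GTPase-activating partner of eIF2, stood at 205 and 175 CPM on chow and 166, 169 and 169.9 CPM under high-fat feeding, and did not pass (-0.17 ± 0.10, adjusted p = 0.264, limma).

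For eIF2 and the proteins that deliver the initiator tRNA, 0 of 5 genes were higher and 1 was lower with the deposited scaling. The shares of all genes were 14.9% and 8.78%. Eif2s2, the beta subunit of eIF2, was at 49.3 and 37.4 CPM on chow and 30.2, 25.9 and 30 CPM under high-fat feeding. The chow libraries were further apart than the lower of them was from the high-fat ones. Eif2s2 fell by 0.57 ± 0.13 (log2, SE, limma adjusted p = 0.0258), and 8 of the 16 alternatives ended the call. The alpha subunit Eif2s1, the site of stress-induced phosphorylation, was at -0.15 ± 0.09 (adjusted p = 0.291, limma) and the gamma subunit Eif2s3x at 0.05 ± 0.08 (0.69). Beta was thus the only 1 of the 3 subunits called with the deposited scaling. With acinar and insulin genes taken out of the summed gene CPM, all 5 genes of the group were called lower, against 42.4% of all genes. Eif2s1 was then at -0.61, Eif2s2 at -1.04 and Eif2s3x at -0.43 (limma adjusted p = 0.00347, 0.000899 and 0.01). Eif2d, which can deliver the initiator tRNA without GTP, was at 0.13 ± 0.09 and did not pass. Eif2s3x was the most abundant of them per length, at 22.6 CPM per kb in chow against 6.39 for Eif2s1. Eif2a, an alternative initiator factor, was at 45.3 and 38.9 CPM on chow and 35.7, 33.6 and 33.4 CPM under high-fat feeding, without overlap, and did not pass (adjusted p = 0.0643, limma). None of the 5 subunits of eIF2B, which recharges eIF2 with GTP, passed, with fold changes from -0.10 (Eif2b3) to 0.24 (Eif2b4). The eIF2 alpha kinases Eif2ak1, which responds to heme and mitochondrial stress, and Eif2ak4, which senses uncharged tRNA, both lay at 0.08 on the log2 scale and did not pass.

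Of the 10 tested genes of the cap-binding, helicase and scaffold group, 2 were higher and 0 lower with the deposited scaling. Among all genes 14.9% were higher and 8.78% lower. Eif4g1, the scaffold that joins the cap, the helicase and eIF3, was at 221 and 235 CPM on chow and 323, 313 and 342 CPM under high-fat feeding. The lowest high-fat library stood well above the highest chow library. Eif4g1 rose by 0.51 ± 0.10 (log2, SE, limma adjusted p = 0.0144) with the deposited scaling. It was at 0.03 with acinar and insulin genes taken out of the summed gene CPM (limma adjusted p = 0.832), or 0.39 above all genes there. Its call ended in 4 of the 16 alternatives. Neither of its relatives was called. Eif4g2, which lacks the cap-binding part, was at 536 and 600 CPM on chow and 559, 579 and 567 CPM under high-fat feeding, and Eif4g3 at 93.7 and 119 against 103, 106 and 110.1 CPM, both with overlap. The log2 ratio of Eif4g2 to Eif4g1 was 1.28 and 1.35 in chow and 0.79, 0.89 and 0.73 on the high-fat diet. That of Eif4g3 to Eif4g1 was -1.24 and -0.98 against -1.65, -1.57 and -1.64. Neither ratio overlapped between the diets (exact two-sided permutation p = 0.2 for each, adjusted p = 0.257 over 9 pairs).

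The helicase genes were led by Eif4a2, at 405 and 387 CPM on chow and 345, 337 and 352 CPM under high-fat feeding. The diets did not overlap, but the difference did not pass (-0.20 ± 0.11, adjusted p = 0.205, limma). Eif4a1, the other cytosolic helicase, was at 57.4 and 61.8 CPM on chow and 63.8, 59.7 and 62.3 CPM under high-fat feeding. Of its 31-base words 67.5% occur in other genes, and the row of its pseudogene Eif4a-ps4 was listed at 59.4 to 77.3 CPM, so its level is uncertain. Eif4a3, the helicase of the exon junction complex, was at 22.4 and 26.6 CPM on chow and 32.6, 32.3 and 31.8 CPM under high-fat feeding. Its high-fat values were nearly equal and above both chow values. It rose by 0.39 ± 0.10 (adjusted p = 0.0295, limma) with the deposited scaling and lay at -0.08 when the total left out acinar and insulin genes (0.27 above all genes). The Eif4a3 call ended in 8 of the 16 alternatives, and 44.8% of its 31-base words occur in other genes, chiefly Gm5580, Gm5576 and Gm8994. Eif4b and Eif4h, which stimulate the helicase, were at 0.12 and -0.04 and did not pass. Eif4e3, a variant cap-binding protein, was just outside the threshold (0.32 ± 0.10, adjusted p = 0.0546, limma), and its relative Eif4e2 was at 0.06 ± 0.09. Eif4enif1, which carries eIF4E into the nucleus, was at 0.24 ± 0.10 (adjusted p = 0.117, limma).

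Of 6 elongation factor genes 1 was called with the deposited scaling, against 23.7% of all genes tested. Eef1a1 and Eef2 had the highest levels per length of the members, at 881 and 486 CPM per kb over the 5 libraries, followed by Eif4a2 at 135 CPM per kb. Eef1a1, the tRNA carrier, was at 1864 and 1607 CPM on chow and 1549, 1460 and 1420 CPM under high-fat feeding. Eef2, the translocase, was at 1446 and 1236 CPM on chow and 1637, 1574 and 1615 CPM under high-fat feeding. Neither overlapped between the diets, and neither passed the test (Eef1a1 -0.23 ± 0.22, adjusted p = 0.471, and Eef2 0.27 ± 0.21, adjusted p = 0.389, limma). Their standard errors were the widest among the members. Eef2 lay at -0.21 when the total left out acinar and insulin genes, and Eef1a1 at -0.71. Eef1a1 shares 72.3% of its 31-base words with 27 other genes, led by the processed pseudogenes Gm13456 and Gm6170. Eef1a2, the neuronal and muscle form of eEF1A, was detected at 19.1 and 17 CPM on chow and 14.8, 16.7 and 20 CPM under high-fat feeding, with overlap. Per length Eef1a1 exceeded it by 104.8-fold over the 5 libraries.

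The exchange factor of eEF1A is made of the products of Eef1b2, Eef1d and Eef1g. Eef1g, its gamma subunit, was at 63.5 and 59.8 CPM on chow and 85.4, 76.9 and 84.7 CPM under high-fat feeding. All 3 high-fat values were above the chow values. Eef1g rose by 0.41 ± 0.09 (log2, SE, limma adjusted p = 0.017) with the deposited scaling and lay at -0.06 when the total left out acinar and insulin genes (0.29 above all genes), and its call ended in 4 of the 16 alternatives. Eef1b2 and Eef1d were at -0.17 ± 0.16 and -0.13 ± 0.08 and did not pass (adjusted p = 0.463 and 0.266, limma). Eef1g shares 68.1% of its words with other genes. The methyltransferases of elongation factors, Eef1akmt1 and Eef2kmt, were at -0.03 and 0.02 on the log2 scale.

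Eif5a, the hypusine-bearing factor that relieves ribosome stalling, was at 107 and 105 CPM on chow and 120.2, 113 and 119 CPM under high-fat feeding. The diets did not overlap, and the difference did not pass (0.14 ± 0.08, adjusted p = 0.226, limma). Its second form Eif5a2 was at 21.3 and 19.5 CPM on chow and 11.8, 17.1 and 14 CPM under high-fat feeding, without overlap and just outside the threshold (-0.50 ± 0.15, adjusted p = 0.0573, limma). The log2 ratio of Eif5a2 to Eif5a went from -2.38 ± 0.08 in chow to -3.05 ± 0.32 under high-fat feeding (SD, n = 2 and 3). Eif6, which keeps the ribosomal subunits apart, did not pass (0.20 ± 0.10, adjusted p = 0.195, limma).

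The ratio within each library was compared for 9 pairs of related factors, a family of 9 tests. In 7 of them the diets did not overlap, namely Eif3j2 to Eif3j1, Eif5a2 to Eif5a, Eif4g2 and Eif4g3 to Eif4g1, Eif4a2 to Eif4a1, Eif1b to Eif1 and Eif4e3 to Eif4e2. Such a share was not computed for pairs of other genes, and of single genes 55.4% of all tested did not overlap. The ratios of Eif4g2 and Eif4g3 share their denominator. The smallest p that 2 against 3 libraries allow is 0.2, so no pair could pass. The log2 ratio of Eif1b to Eif1, which share 81.1% of their coding bases, was -2.14 and -2.22 in chow and -1.87, -1.99 and -1.60 on the high-fat diet. Eif4a2 to Eif4a1 was at 2.82 and 2.65 against 2.43, 2.50 and 2.50. Both moved by less than 0.4 on the log2 scale. The pairs Eef1a2 to Eef1a1 and Eif1ax to Eif1a overlapped between the diets.

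**Figure D4:**
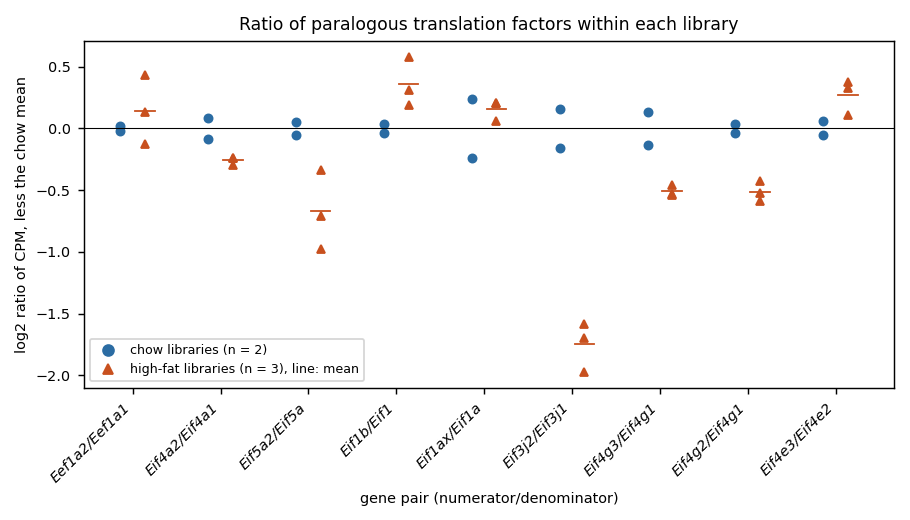
The log2 ratio of the CPM of 9 pairs of related genes in each library, with the chow mean of each pair set to 0 (circles chow, triangles high-fat diet, line the high-fat mean). The Eif3j2 to Eif3j1 ratio lies furthest down, at -1.75 relative to chow, and the ratios of Eif4g2 and Eif4g3 to Eif4g1 both lie at -0.51.

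The members called lower were poorer in GC than most of those called higher. GC content was 40% to 44.5% in the 6 members called lower and 42.5% to 55.9% in the 7 called higher, with Eif3j1 the only one of those below 49%. Of 16 members with a GC content below 45%, 1 was called higher and 6 lower, with a median log2 fold change of -0.24. Of 28 members with at least 50%, 5 were higher and 0 lower, with a median of 0.14. Across the 55 tested members Pearson's r between GC content and log2 fold change was 0.55 (Spearman's rho 0.56). These points share 5 libraries, and genes are not independent replicates. Among all 13704 protein-coding genes tested the same r was 0.17. The members varied less within the diets (median residual SD 0.089, against 0.145 in all genes tested), so the r values are not directly comparable. Of the protein-coding genes below 45% GC 7.19% were called higher and 15% lower, against 19.3% and 6.06% at 50% or more. Transcript length followed the fold change less (r = -0.16 in the members). With trends on length and GC removed from each library, 7 members were called higher and 4 lower, and 10 of the 13 calls were kept.

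**Figure D5:**
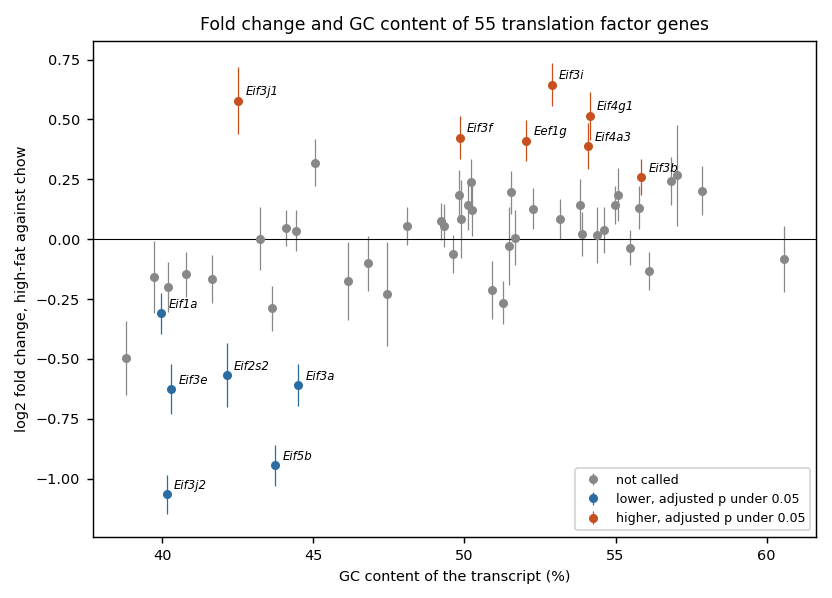
The log2 fold change of each of the 55 tested genes against the GC content of its longest coding transcript, with bars for the standard error and colours for the limma call with the deposited scaling. The 6 genes called lower all lie at or below 44.5% GC, and 6 of the 7 called higher lie above 49%. When scaled by the summed gene CPM without acinar and insulin genes, however, Eif3b, Eif3f, Eef1g and Eif4a3 fall below 0.

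Other genes of the pathway, on lists of termination, poly(A)-binding, eIF2 phosphorylation, hypusine and diphthamide synthesis and mitochondrial translation, were counted the same way. Of 41 tested, 3 were higher and 4 lower with the deposited scaling (17.1%, against 23.7% of all genes), with a median log2 fold change of -0.01. The largest of these was in Ddit3, the stress-induced factor CHOP, which fell by 0.89 ± 0.14 (log2, SE, limma adjusted p = 0.00589). It was at 18.7 and 18.2 CPM on chow and 9.25, 8.26 and 11.2 CPM under high-fat feeding. Both phosphatase subunits that reverse eIF2 phosphorylation were higher with the deposited scaling, Ppp1r15b (60.2 and 69.8 CPM against 104, 86.1 and 98.8 CPM, adjusted p = 0.0151) and Ppp1r15a (adjusted p = 0.0214, limma), the latter named after its value was seen, as were Mknk2 and Mcts1. Denr and Mcts1, which form a recycling and reinitiation factor, were lower (Denr -0.57 ± 0.09, adjusted p = 0.00706, and Mcts1 -0.55 ± 0.14, adjusted p = 0.0325, limma). Pelo, which rescues stalled ribosomes, was higher with the deposited scaling (0.59 ± 0.11, adjusted p = 0.0112, limma), and Mknk2, a kinase of eIF4E, was lower (adjusted p = 0.0303, limma). None of the 9 hypusine and diphthamide genes or of the 9 mitochondrial translation factors was called. With acinar and insulin genes taken out of the summed gene CPM, 0 of the 41 were higher and 25 lower (61%), beside 4.71% and 42.4% of all genes tested.

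The calls differed in how well they held. No alternative changed how reads were divided between genes that share sequence. Holding in them thus does not lessen the uncertainty of Eif3j2, which shares 94.9% of its words with other genes, mainly Eif3j1. Eif3j2, Eif5b, Eif3a and Eif3e were called lower in all 16 alternatives, including the one with the acinar level as a covariate and that with trends on length and GC removed. With the acinar level as a covariate 8 of the 13 calls were kept (Eif1a, Eif2s2, Eif3b, Eif3j1 and Eif4a3 lost theirs), and 4 members were higher and 5 lower beside 6.61% and 4.21% of all genes. With length and GC trends removed the background was 13.9% higher and 7.47% lower. Only the fit without chow replicate 3 had as many calls as the one with all 5 libraries, in the members and in all genes alike. Without chow replicate 1 there were 4 higher and 4 lower (7.95% and 4.65% of all genes), and without chow replicate 3 there were 7 and 7 (17.5% and 8.43%). Without high-fat replicate 1 there were 1 and 4 (8.67% and 4.65%), without high-fat replicate 2 there were 2 and 5 (7.01% and 4.07%), and without high-fat replicate 3 there were 1 and 4 (7.27% and 4.39%). Eif3i was called higher in each of these 5 fits. Without the filter on low values 2 were higher and 4 lower (2.74% and 1.46%), without the trend in the variance prior 5 and 4 (11.8% and 7.61%), and with all 6 columns 10 and 10 (25.3% and 16.5%). The part of the fibroblast and endothelial markers called lower, and of the beta-cell markers called higher, beside these genes was not tested.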

How the data were processed

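Partek made the deposited table, per the submitters' processing notes. For its version and for the aligner, build, read counting and library kit, no detail is given in those sources. Every column had a lowest value of 1, and low values less 1 lay on multiples of 1 step in 5 columns, so the deposited values were read as CPM plus 1 and 1 was subtracted. Because 64.5% to 70% of the low values (up to 20 reads) were whole reads within 0.1, reads were not recovered. The averaged chow column was left out.

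limma 3.58.1 (R 4.3.3) tested the 16939 genes averaging 0.5 CPM or more, as log2(CPM + 1), and let the prior variance follow the mean level. Benjamini-Hochberg adjustment covered all of them, and a log2 fold change on this scale understates the change of low genes. Transcript length, GC content, coding identity and the 31-base words that genes share were computed on GENCODE M21 (longest coding transcript), which may differ from the authors' annotation, and start windows from RefSeq. All 58 members matched a symbol. Genes named were the members called, the most abundant of each role, the listed pairs and the 4 pathway genes with the smallest p. Other members are given with their role. Members and lists were chosen with earlier results of these data known. Alternatives included 3 other scalings (median ratio, trimmed mean of M values, and the summed gene CPM without acinar and insulin genes). The others were pseudocounts, filters, no trend, all 6 columns, an acinar covariate, leaving out each library and removal of length and GC trends. The last of these was chosen after seeing the data.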

Additional observations from a re-analysis of the deposited data

How the results depend on the processing

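With acinar and insulin genes taken out of the summed gene CPM, the members' median log2 fold change was -0.431. Of the members 0 were higher and 36 lower, and of the pathway genes 0 higher and 25 lower. Beside these stood 4.71% higher and 42.4% lower of all genes tested. By role, 5 of 7 genes of scanning, 5 of 5 of eIF2, 2 of 5 of eIF2B and 1 of 2 eIF2 alpha kinases were lower there. So were 9 of 14 of eIF3, 7 of 10 of eIF4, 2 of 3 of eIF5A and eIF6, 4 of 6 elongation factors and 1 of 2 methyltransferases. In eIF3, eIF4 and the elongation factors 0 were higher. Of the members called in either fit, the log2 fold change was above 0 with the deposited scaling and below 0 there for Eef1g (-0.0637), Eef2kmt (-0.431), Eif2ak1 (-0.392), Eif2b5 (-0.381), Eif2d (-0.331), Eif2s3x (-0.43), Eif3b (-0.217), Eif3d (-0.434), Eif3f (-0.0528), Eif3g (-0.335), Eif3k (-0.448), Eif3m (-0.432), Eif4a1 (-0.419), Eif4a3 (-0.0782), Eif4b (-0.358), Eif4e2 (-0.401), Eif4g2 (-0.479), Eif4g3 (-0.471) and Eif5a (-0.333), beside a shift of all genes to a median of -0.35. With no filter, 2 members were higher and 4 lower (1 of scanning, 0 of eIF2 lower, and 1 of eIF3, 1 of eIF4 and 0 elongation factors higher), with 1 pathway gene higher and 2 lower, where more genes were tested. Of all genes there, 2.74% were higher and 1.46% lower. With no trend in the variance prior, 1 gene of scanning and 0 of eIF2 were lower and 1 of eIF4 higher (all genes 7.61% lower and 11.8% higher). With the acinar covariate, 4 members were higher, 2 of them of eIF3 and 1 of eIF4, and 1 of scanning, 0 of eIF2 and 1 of eIF5A and eIF6 were lower. Beside these stood 6.61% higher and 4.21% lower of all genes. With all 6 columns, where the averaged column counts as a library, 10 members were higher and 10 lower (1 of eIF2B and 1 eIF4E-binding protein higher, 2 of eIF2, 1 of eIF4 and 1 of eIF5A and eIF6 lower), with 7 pathway genes higher and 9 lower. In that fit 25.3% of all genes were higher and 16.5% lower. Under median-ratio scaling and the trimmed mean of M values, 2 genes of eIF2 and 1 of eIF5A and eIF6 were lower (11.5% and 11.1% of all genes). Removal of length and GC trends left 1 gene of scanning and 0 of eIF2 lower, beside 7.47% of the protein-coding genes tested. Apart from changes that follow from the genes or columns used, the cause was not tested. Leaving out 1 library gave 1 to 7 members higher and 4 to 7 lower, 1 to 3 of eIF3, 0 to 3 of eIF4 and 0 to 1 elongation factors higher, 1 to 2 of scanning, 0 to 2 of eIF2 and 0 to 1 of eIF5A and eIF6 lower, and 1 to 4 pathway genes higher and 2 to 5 lower. Across these fits 7.01% to 17.5% of all genes were higher and 4.07% to 8.43% lower. The log2 ratio of Eif4a2 to Eif4a1 then differed by -0.344 to -0.17, that of Eif1ax to Eif1a by -0.0812 to 0.398 and that of Eif4g3 to Eif4g1 by -0.64 to -0.38. The members' share of the summed CPM differed by -0.215 to -0.0789 percentage points, by -0.365 over the sum without acinar and insulin genes and by -0.00349 over the library total. A pseudocount of 0.5 or 2 and a filter at 1 CPM kept all 13 calls. No paired analysis was possible because the labels give the samples no replicate numbers shared between the diets. At the implied depths every tested member was above the floor of 3 reads in each library.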
